A study of Homo sapiens with 12 samples.

Results

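The promoters of 8 genes of the hypoxia pathway were examined for cytosine modification at CCGG sites in renal cell carcinoma lines. The genes are HIF1A, EPAS1, EGLN3, SLC2A1, CA9, VEGFA, CCND1 and NDRG1. A promoter was taken as every CCGG site within 2000 bp of a given hg19 start, and the tags of its sites were summed in each library. The rule that defines the promoters uses no measured value, but the genes were chosen with earlier results of these data known. The 8 promoters held 168 of the 1019951 CCGG sites at which any library had a tag.

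Each DNA sample came from a clear cell renal cell carcinoma line, labelled 769 or 786, and was cut in separate reactions with HpaII and with MspI for HELP-tagging, which sequences a short tag beside each cut CCGG. Each line had 1 untreated control and 2 DNA samples treated with AA, ascorbic acid by the title of the study, which makes 6 DNA samples and 12 libraries. By the labels, the AA samples are 1 and 2 of their line, and nothing says whether these are separate cultures, doses or times, so SDs and p-values measure only the spread between these samples. Dose, time and the full names of the lines are not in the labels, and no line was treated with anything else that the labels name.

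HIF1A and EPAS1 encode the oxygen-regulated alpha subunits HIF-1α and HIF-2α of the hypoxia-inducible factor. With oxygen, prolyl hydroxylases such as the product of EGLN3 mark these subunits for the ubiquitin ligase that contains VHL, and without it the subunits pair with ARNT and bind DNA at a core motif ending in CGTG. Clear cell renal cell carcinoma typically loses VHL, so the factor stays on, and SLC2A1, CA9, VEGFA, CCND1 and NDRG1 are among the genes it is known to raise. CpG methylation inside that core motif is known to hinder binding. Both the hydroxylases and the TET enzymes, which oxidise 5-methylcytosine, need iron and 2-oxoglutarate, and ascorbic acid acts on both as a reducing cofactor.

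HpaII cuts CCGG only when the inner cytosine is unmodified, and MspI cuts it in either state. The measure used throughout is the HpaII over MspI ratio, the share of a DNA sample's HpaII tags that lay in the promoter divided by the share of its MspI tags there. A ratio of 1 is the level of the library as a whole, and a higher ratio means more HpaII tags for the MspI tags of the promoter than in the whole library. It does not count open sites, since a single site can hold most of the tags, and it does not read a change common to the whole library. The assay does not separate 5-methylcytosine from 5-hydroxymethylcytosine. Where a sample had 0 HpaII tags, the limit given is the ratio at 3 tags, and the 95% counting interval reaches above it. No molecular identifier marks copies made in PCR, so the intervals and limits given here cover counting error only.

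The sequences before 4 of the starts are shown because their content of CCGG sets what the assay could read there. RefSeq promoter sequences (GRCh38.p14) were at hand for 5 of the 8 genes, namely CA9, SLC2A1, EPAS1, HIF1A and EGLN3. The 250 bases before the RefSeq start are given on the strand of the gene, with every CCGG in capitals for SLC2A1, EPAS1 and EGLN3. For CA9, which had no CCGG in this stretch, the capitals mark its only ACGTG, here read on the opposite strand as CACGT. In this order they lie at chr1:42958869-42959118 on the minus strand, chr2:46297157-46297406 on the plus strand, chr14:33951075-33951324 on the minus strand and chr9:35673678-35673927 on the plus strand.
SLC2A1: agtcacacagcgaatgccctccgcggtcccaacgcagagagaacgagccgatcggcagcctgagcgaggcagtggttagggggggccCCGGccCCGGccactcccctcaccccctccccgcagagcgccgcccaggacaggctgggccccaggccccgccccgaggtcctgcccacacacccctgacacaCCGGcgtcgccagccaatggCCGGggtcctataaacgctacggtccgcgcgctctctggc
EPAS1: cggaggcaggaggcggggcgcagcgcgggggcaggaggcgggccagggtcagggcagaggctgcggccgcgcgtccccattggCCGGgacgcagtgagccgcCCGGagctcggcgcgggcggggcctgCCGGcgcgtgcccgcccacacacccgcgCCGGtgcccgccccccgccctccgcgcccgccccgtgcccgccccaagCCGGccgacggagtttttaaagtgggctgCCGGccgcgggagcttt
EGLN3: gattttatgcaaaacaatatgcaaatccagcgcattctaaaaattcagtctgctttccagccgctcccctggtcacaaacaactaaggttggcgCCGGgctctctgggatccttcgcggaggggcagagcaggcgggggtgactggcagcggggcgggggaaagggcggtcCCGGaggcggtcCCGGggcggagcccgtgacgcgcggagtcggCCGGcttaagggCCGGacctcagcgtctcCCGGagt
CA9: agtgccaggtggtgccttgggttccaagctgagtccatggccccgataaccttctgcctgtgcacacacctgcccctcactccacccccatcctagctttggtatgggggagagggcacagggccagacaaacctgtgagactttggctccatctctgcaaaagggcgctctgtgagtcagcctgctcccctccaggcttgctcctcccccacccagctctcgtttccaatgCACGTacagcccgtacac

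SLC2A1 held 4 CCGG in these 250 bases, EPAS1 6, EGLN3 6, HIF1A 1 and CA9 0. Of 35116 RefSeq promoters, 17.5% held 4 or more in the same stretch and 41.55% held none. The motif ACGTG, searched on both strands, was in CA9 alone of the 5, at 18 bases before the start, and in 18.5% of all promoters. GCGTG, also searched on both strands, was in EPAS1 and HIF1A once each and in 32.2% of all promoters. A match is a description of letters, not a bound site. Of the CCGG printed for EPAS1, 5 of 6 could be tied to a site with tags in the files, and for EGLN3 also 5 of 6, by their spacing. For SLC2A1 all 4 were tied, and they placed the RefSeq start 306 bp downstream of the start used for its window.

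The hg19 windows differed widely in CCGG content. The 3 richest were VEGFA (chr6:43735946-43739946) and CCND1 (chr11:69453873-69457873) with 32 listed sites each and EPAS1 (chr2:46522541-46526541) with 30, followed by SLC2A1 (chr1:43422847-43426847) with 28. EGLN3 (chr14:34418284-34422284) had 13, HIF1A (chr14:62160119-62164119) and NDRG1 (chr8:134307547-134311547) 12 each, and CA9 (chr9:35671915-35675915) 9. SLC2A1, EGLN3 and NDRG1 lie on the minus strand. No hg19 gene annotation was used, so sites are given by their distance along the gene from the start and not by exon or intron. By RefSeq positions in GRCh38.p14, the window around the start also touched SLC2A1-DT at SLC2A1, HIF1A-AS1 at HIF1A and the pseudogene RN7SL22P at CA9, and no other gene at the remaining 5.

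Depth was uneven. MspI libraries held 3785890 to 12442031 tags and HpaII libraries 3111094 to 11054037, apart from the HpaII library of the 786 control with 189704. Over the 8 promoters that library had 79 tags, against 1432 to 4089 in the other 5 HpaII libraries. It had a tag at 13 of the 168 sites (7.74%), against 55 (32.7%) in the 769 control, 120 and 66 in the 769 AA samples and 100 and 117 in those of 786. Every comparison with AA in 786 is measured against it. Over all sites on chromosomes 1 to 22 and X the shares with an HpaII tag ran from 3.43% in the 786 control to 27.9% in 786 AA 2, so the promoters were cut at a larger share of their sites than the genome in every DNA sample. The labels and files name no batch, date or lane.

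The regulators come first. HIF1A, the alpha subunit of HIF-1, had ratios of 4.15 in the 769 control, 5.58 in 769 AA 1 and 0.226 in 769 AA 2. In 786 the control had 0 HpaII tags beside 65 MspI tags, a limit of 2.25 at 3 tags, and the AA samples stood at 6.06 and 2.67. In 769 the AA samples lay on either side of the control, and their counting intervals, 3.77 to 8.54 and 0.128 to 0.376, were far apart. These intervals cover counting error only, and what set the samples apart was not tested. In 786 both AA samples lay above the limit of the control at 3 tags, and their mean of 4.37 ± 2.39 (SD, n = 2) was 1.94 times that limit. The counting interval of the control reached higher, to 2.85. That is above 786 AA 2, whose own interval was 1.88 to 3.83, so AA 2 was not shown to be above the control. The interval of 786 AA 1, 3.57 to 11.1, lay above that of the control. However, all 15 MspI tags of 786 AA 1 were at 1 site, 514 bp downstream of the start. That site held 26 of its 163 HpaII tags, a ratio of 0.967, under the limit of 3.49 of the control there.

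All 12 listed HIF1A sites had HpaII tags in at least 1 DNA sample. The site 514 bp downstream of the start held the most HpaII tags of this window, 183 of 610 over the 6 DNA samples. It had 93 HpaII tags beside 28 MspI tags in the 769 control and 55 beside 9 in 769 AA 1. In 769 AA 2 it had 4 beside 1, in the 786 control 0 beside 42, and in the 786 AA samples 26 beside 15 and 5 beside 25. With only 1 MspI tag at this site in 769 AA 2, the low ratio of that sample's window came from other sites, among them that at 704 bp with 44 MspI tags and 0 HpaII tags.

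EPAS1, the alpha subunit of HIF-2, had ratios of 1.68 in the 769 control and 1.65 and 1.25 with AA. In 786 the control stood at 0.583, from 5 HpaII tags beside 419 MspI tags (95% counting interval 0.188 to 1.37), and the AA samples at 1.64 and 4.94. The AA samples of 769 thus lay just below their control and those of 786 above theirs. The AA mean was 0.862 times the control in 769 and 5.64 times in 786, where the AA samples themselves differed (3.29 ± 2.33, SD, n = 2).

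Within the EPAS1 window the sites upstream of -700 bp had no HpaII tag in any DNA sample. These 4 sites, a stretch chosen after its values were seen, had 44, 59 and 33 MspI tags in the 769 control, AA 1 and AA 2 and 27, 5 and 8 in the 3 samples of 786. The limit at 3 tags was 0.148, 0.0394 and 0.111 in the 769 samples, and 5.43, 0.335 and 0.615 in those of 786. Between -700 bp and the start, where 10 sites lie, the ratio was 2.01, 2.07 and 1.76 in 769, and downstream of the start it was 1.71, 2.35 and 1.22. In 786 the stretch from -700 bp to the start had ratios of 0.486 in the control, from 2 HpaII tags, and 0.7495 and 4.76 with AA. In all 3 samples of 769 the 2 stretches nearer the start thus stood far above the upstream limit. The AA samples of 786 also stood above theirs, but those limits rest on 5 and 8 MspI tags, and 786 AA 1 was close to its limit of 0.335. The 786 control was too shallow to show a difference. Of the sites upstream, that at -991 bp carried 126 of the MspI tags.

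The printed EPAS1 stretch lies on the side with HpaII tags. The CCGG 94 bases before the RefSeq start, at -87 bp of the window, had the most HpaII tags of the window, 461 beside 224 MspI tags over the 6 DNA samples. Its HpaII tags were 111, 36 and 53 in 769 and 2, 224 and 35 in 786, in the order control, AA 1, AA 2. The CCGG at 46 bases before the RefSeq start had 174 HpaII tags beside 13 MspI tags, and that at 148 bases had no tag in any library. The site at -452 bp, the most tagged by MspI among those of this window with at least 10 MspI tags in every DNA sample, had HpaII tags beside MspI tags of 8 beside 75, 47 beside 27 and 12 beside 41 in 769. In 786 it had 0 beside 10, 0 beside 55 and 77 beside 10, so the 786 AA samples stood at opposite ends there.

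EGLN3 encodes a prolyl hydroxylase that is itself raised by the factor it marks for decay. Its ratio was 0.155 in the 769 control, from 6 HpaII tags beside 84 MspI tags, and 5.82 and 0.443 with AA. In 786 the control had 0 HpaII tags beside 48 MspI tags, a limit of 3.05, and the AA samples stood at 1.38 and 1.33. Both 769 AA samples were above their control, and 769 AA 1 stood far above 769 AA 2, with counting intervals of 3.83 to 9.23 and 0.170 to 1.03. The 786 AA samples were alike (1.36 ± 0.0381, SD, n = 2) and lay under what the shallow control could have shown, so no fold is given there.

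The high EGLN3 value of 769 AA 1 rested largely on 1 of the printed sites. The CCGG 79 bases before the RefSeq start, at -74 bp of the window, held 131 of its 188 HpaII tags (69.7%), beside 12 MspI tags. The same site had 1 HpaII tag in 769 AA 2, 48 beside 46 MspI tags in 786 AA 1 and 0 in the remaining 3 DNA samples. Without this site the ratio of 769 AA 1 was 3.40 and that of 786 AA 1 was 5.99 in place of 1.38. The printed CCGG at 156 bases before the start had 40 MspI tags and 0 HpaII tags in the 769 control, and 41 HpaII tags and 0 MspI tags in 786 AA 1.

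**Figure D1:**
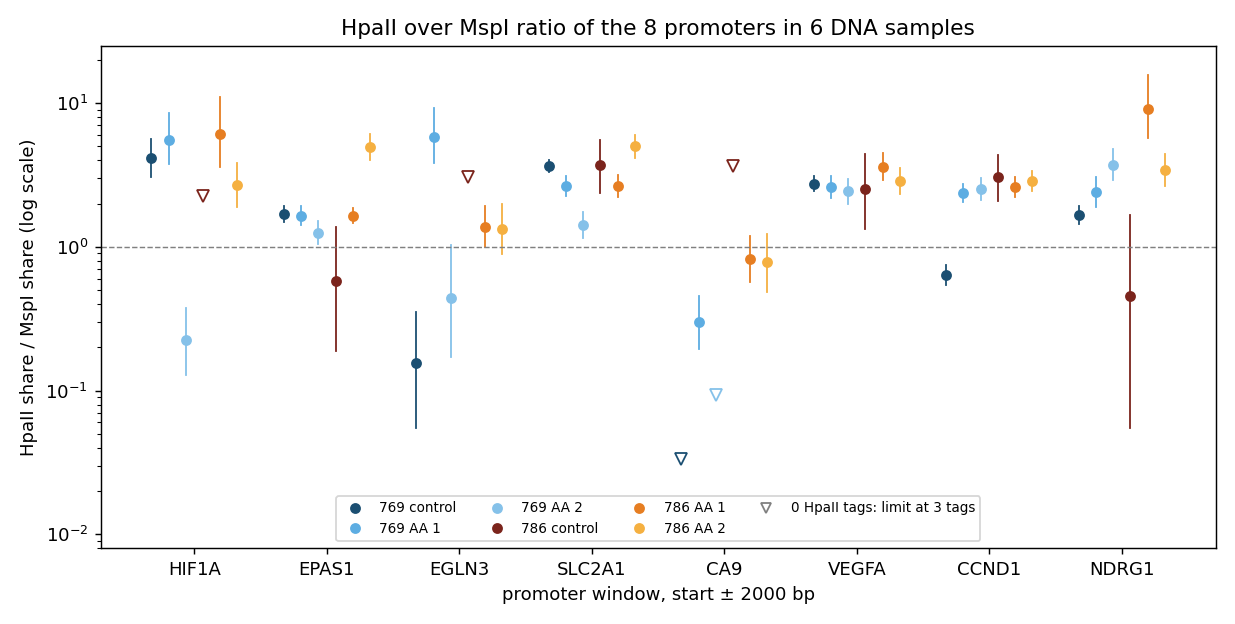
HpaII over MspI ratio on a log scale for each promoter window and DNA sample, with 95% counting intervals as bars, the library level of 1 as the dashed line, and open triangles for the limit at 3 tags where a sample had 0 HpaII tags. VEGFA, SLC2A1 and CCND1 stay between 0.639 and 5.01 in the 6 DNA samples, while HIF1A and EGLN3 range from 0 tags to values above 5 and CA9 has 0 tags in 3 samples.

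Among the targets, SLC2A1 encodes the glucose transporter GLUT1. Its ratios were 3.66 in the 769 control and 2.64 and 1.41 with AA, and 3.69 in the 786 control and 2.66 and 5.01 with AA. Both controls stood at nearly the same level, both 769 AA samples lay below their control, and the 786 AA samples lay on either side of theirs. The AA mean was 0.553 times the control in 769 (2.02 ± 0.865, SD, n = 2) and 1.04 times in 786.

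SLC2A1 tags sat well downstream of the start used for the window. The 15 sites beyond 500 bp, a stretch chosen after its values were seen, held 1098 of the 1126 HpaII tags of the 769 control and 25 of 25 in the 786 control. The site at 608 bp had the most HpaII tags. It had 58 beside 177 MspI tags in the 769 control, 170 beside 47 in 769 AA 1 and 73 beside 5 in 769 AA 2, and so stood against the direction of the whole window in that line. In 786 it had 0 beside 33, 158 beside 0 and 71 beside 29. The 4 printed CCGG were thinly tagged, with 0, 4, 1 and 64 HpaII tags beside 6, 5, 9 and 15 MspI tags over the 6 DNA samples.

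CA9 encodes carbonic anhydrase IX, a membrane enzyme that acidifies the surroundings of the cell and a standard marker of active HIF in renal carcinoma. It had the lowest ratio of the 8 promoters in every DNA sample other than the 786 control. There CA9, HIF1A and EGLN3 all had 0 HpaII tags, and with a limit of 3.66 the rank of CA9 cannot be read. HpaII tags numbered 0 in the 769 control, 33 in 769 AA 1 and 0 in 769 AA 2, beside 196, 85 and 39 MspI tags. The ratio was 0.301 in 769 AA 1. The limit was 0.0332 in the 769 control and 0.0936 in 769 AA 2, and their counting intervals reached 0.0412 and 0.121. In 786 the control had 0 HpaII tags beside 40 MspI tags, a limit of 3.66, and the AA samples stood at 0.820 and 0.780. The 769 AA mean (0.150 ± 0.213, SD, n = 2) was 4.53 times the control at its limit, a value that comes from AA 1 alone.

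The CCGG sites of CA9 fell in clusters downstream of the start, and 1 of 9 listed sites lay upstream. In the first 300 bp, the HpaII tags beside the MspI tags were 0 beside 144, 1 beside 50 and 0 beside 11 in 769, and 0 beside 26, 0 beside 25 and 18 beside 33 in 786. In the 5 sites beyond 1700 bp they were 0 beside 52, 32 beside 35 and 0 beside 28 in 769, and 0 beside 14, 75 beside 26 and 11 beside 25 in 786. Tags near the start were thus present in number in 786 AA 2 alone, and both 769 AA 1 and 786 AA 1 had theirs beyond 1700 bp. In 786 AA 1, 64 of 75 tags were at the site at 1861 bp, where no MspI tag was found. Without that site its ratio was 0.120. These stretches were also chosen after their values were seen. The printed CA9 stretch holds no CCGG, so the assay had no site in it.

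VEGFA encodes the main angiogenic growth factor of these tumours. Its ratios were 2.76 in the 769 control and 2.59 and 2.43 with AA, and 2.54 in the 786 control (95% counting interval 1.33 to 4.42, from 13 tags) and 3.61 and 2.86 with AA. On the log scale the 6 values lay closer together than those of any other of the 8 promoters. Both AA samples were below the control in 769 and above it in 786, by 0.911 and 1.27 times at the mean. Single sites moved more than their sum. At 1334 bp, the site with the most HpaII tags, the 769 control had 133 HpaII tags and 0 MspI tags, 769 AA 1 had 24 beside 11 and 769 AA 2 48 beside 29. The site at 845 bp, the one with at least 10 MspI tags in every DNA sample, had 38 beside 27, 35 beside 13 and 3 beside 34 in 769 and 0 beside 18, 52 beside 20 and 4 beside 10 in 786.

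CCND1 encodes cyclin D1, which drives entry into the cell cycle and is raised by HIF-2 in renal carcinoma cells. Its ratio was 0.639 in the 769 control (205 HpaII tags beside 696 MspI tags) and 2.37 and 2.53 with AA. In 786 it was 3.06 in the control (34 beside 542) and 2.61 and 2.86 with AA. The 769 control stood below the other 5 DNA samples, which lay between 2.37 and 3.06, and its counting interval of 0.544 to 0.748 did not reach them. The AA mean was 3.83 times the control in 769 (2.45 ± 0.113, SD, n = 2) and 0.893 times in 786.

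The low level of the 769 control was not even along the CCND1 window. Upstream of -1000 bp its ratio was 0.0469, against 2.01 and 2.35 in the 769 AA samples, and downstream of the start it was 0.685 against 2.70 and 3.46. Between -1000 bp and the start it was 1.98, against 2.23 and 1.24. In 786 the same 3 stretches had ratios of 0.284, 1.81 and 14.7 in the control, in the order far upstream, downstream and near upstream. The 786 AA samples had 1.59 and 2.21 far upstream, 2.22 and 3.88 downstream, and 10.6 and 2.01 near upstream. Far upstream and downstream, the 769 control was thus below both AA samples of its line. The 786 control values rest on 1, 11 and 22 HpaII tags in the same order, too few to show that it was lower. These stretches were chosen after their values were seen.

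Among single CCND1 sites, that at 99 bp lies in the downstream stretch and that at -1890 bp in the far upstream one. At 99 bp, the site with the most HpaII tags, the HpaII tags beside the MspI tags were 0 beside 84 in the 769 control, 192 beside 70 in AA 1 and 32 beside 1 in AA 2. In 786 they were 0 beside 207, 258 beside 116 and 160 beside 39. The pooled AA ratio was 37.1 times the control at 3 tags in 769 and 3.22 times in 786. At -1890 bp, a site picked after its values were seen, they were 0 beside 318, 165 beside 47 and 81 beside 39 in 769, and 1 beside 96, 139 beside 2 and 93 beside 68 in 786. By contrast the sites at -1768, -1755 and -1070 bp had 11, 10 and 101 MspI tags and no HpaII tag in any DNA sample.

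NDRG1 encodes a stress-response protein that hypoxia strongly raises. Its ratios were 1.67 in the 769 control and 2.39 and 3.73 with AA. In 786 the control stood at 0.457, from 2 HpaII tags beside 214 MspI tags (95% counting interval 0.0549 to 1.67), and the AA samples at 9.14 and 3.42. Each of the 4 AA samples lay above the control of its line. The AA mean was 1.83 times the control in 769 and 13.8 times in 786, where the counting interval of the control alone gives 3.76 to 114. In 786 AA 1 the ratio of 9.14, the highest of the 8 promoters in any DNA sample, rested on 18 MspI tags. The site at -191 bp had the most HpaII tags, of which 170 of 282 were in the 769 control, beside 185 of its 202 MspI tags.

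**Figure D2:**
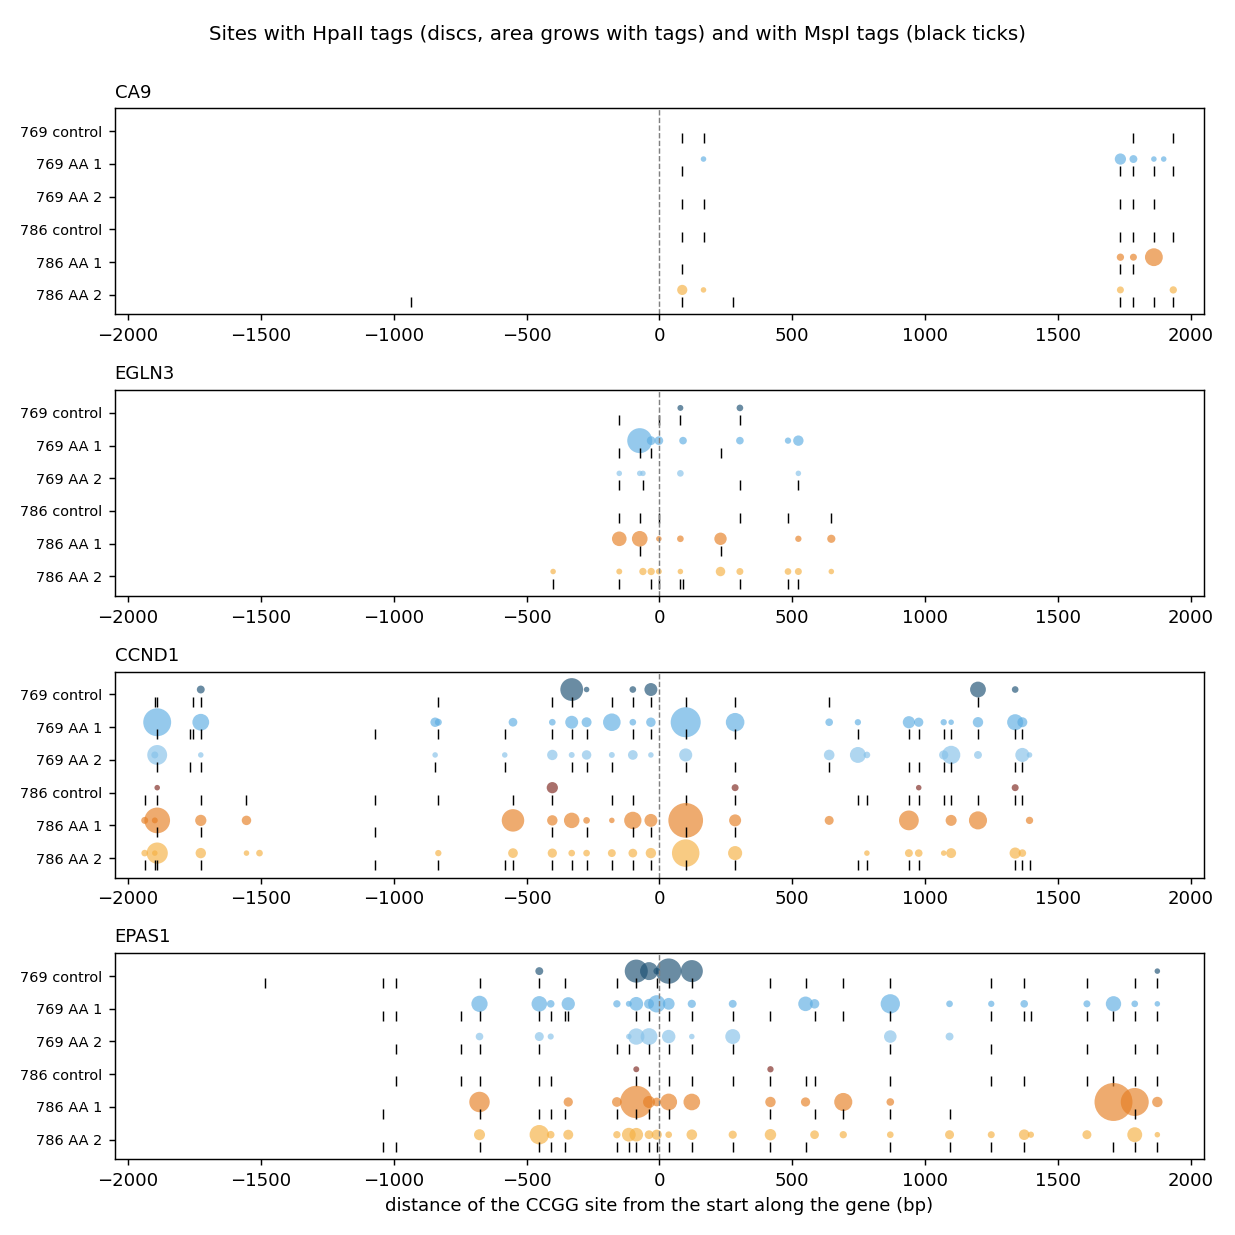
CCGG sites of CA9, EGLN3, CCND1 and EPAS1 by distance from the start (bp, along the gene) and DNA sample, with a disc where the site had HpaII tags (area grows with their number) and a black tick below it where it had MspI tags. EPAS1 has ticks and no discs upstream of -700 bp, and at 99 bp of CCND1 the discs are in the 4 AA samples and absent in both controls.

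Sites that were never cut by HpaII were fewer in these promoters than in the genome. Of 124 promoter sites whose MspI tags summed to at least 10, 7 (5.65%) had no HpaII tag in any DNA sample, against 47.3% of 611337 sites on chromosomes 1 to 22 and X. All 7 were in 2 genes, 4 of 27 in EPAS1 and 3 of 25 in CCND1, and all lay upstream of the start. The 4 in EPAS1 were at -1040, -991, -745 and -357 bp with 38, 126, 11 and 43 MspI tags. Sites of 1 promoter share their DNA fragments and are not replicates.

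Sites tagged by HpaII in all 4 AA samples and in neither control numbered 6 of these 124 (4.84%), against a background of 3.32% of the 611337 sites. They were EPAS1 at -677 and 869 bp, EGLN3 at 523 bp and CCND1 at -179, 99 and 1098 bp. None of the 124 had the opposite pattern, which 36 of the 611337 showed. Among sites tagged in all 4 AA samples, 6 of 36 in the promoters (16.7%) and 30.35% of 66849 in the genome had no tag in either control. This way of choosing sites was set after values were seen, and the share with an HpaII tag was lower in both controls over the whole genome, at 10.6% and 3.43% against 13.4% to 27.9% with AA. The EPAS1 site at -677 bp had 52 and 7 HpaII tags in 769 AA 1 and AA 2. In the 769 control it had 0 beside 56 MspI tags. The site at 869 bp had 76 and 29 with AA, and 0 beside 63 MspI tags in that control. Higher values with AA follow from how these sites were chosen, so no fold is given. In 786 the control limit at -677 bp was 2.19, with 786 AA 1 below it at 0.749 and 786 AA 2 above it at 4.31. At 869 bp the limit was 24.4, above both AA samples. The pooled AA ratio of 786 lay under the limit at both sites.

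The promoters were then set against 21016 tested windows of the same length with at least 10 reference CCGG sites. CA9 lay at percentiles 9.73 to 38.7 of these windows in the 5 DNA samples other than the 786 control, below the median window in all 5. In the 786 control, where 45.9% of these windows had 0 HpaII tags, CA9, HIF1A and EGLN3 also had 0, and their limits of 3.66, 2.25 and 3.05 lie above the median window, so their place there cannot be read. VEGFA lay at percentiles 73.6 to 86.9 and SLC2A1 at 59.0 to 96.1, above the median window in all 6. EPAS1 (52.8 to 95.9) and NDRG1 (50.7 to 98.2) also had values above it in all 6, but in the 786 control these rest on 5 and 2 HpaII tags, with counting intervals of 0.188 to 1.37 and 0.0549 to 1.67 that span the median. CCND1 was below the median in the 769 control (percentile 47.3) and at 70.3 to 83.5 in the other 5. In the 5 DNA samples other than the 786 control HIF1A and EGLN3 lay on both sides, with HIF1A at 32.9 to 97.7 and EGLN3 at 36.9 to 98.02. The median window had a ratio of 0.815 in the 769 control, 1.37 and 0.953 with AA, and 0.414, 1.21 and 1.36 in 786. Both medians of the controls were therefore below those of the AA samples of their line.

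**Figure D3:**
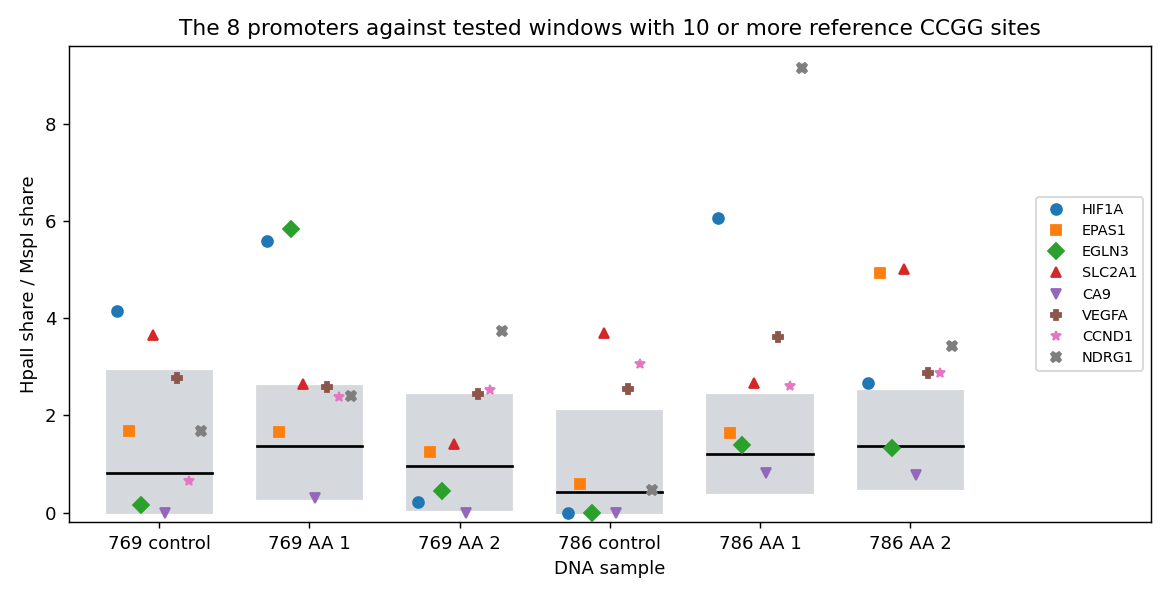
HpaII over MspI ratio of the 8 promoters (symbols) in each DNA sample, with the middle 50% of 21016 tested windows that have 10 or more reference CCGG sites as a grey box and their median as a line. Outside the 786 control CA9 lies below the line in all 5 DNA samples and VEGFA, SLC2A1, EPAS1 and NDRG1 lie above it. In the 786 control CA9, HIF1A and EGLN3 have 0 tags and EPAS1 and NDRG1 rest on 5 and 2.

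The order of the 8 promoters changed between DNA samples. The highest was HIF1A in the 769 control, EGLN3 in 769 AA 1, NDRG1 in 769 AA 2 and 786 AA 1, and SLC2A1 in the 786 control and 786 AA 2. In 769 the 3 values of VEGFA (2.43 to 2.76) lay above those of EPAS1 (1.25 to 1.68) without overlap, and both lay above CA9. Between most other neighbours in the order the 3 values of a line overlapped. By the distance between log2 ratios over the 6 DNA samples, with 0 tags put at the limit of 3, the nearest of 19 other pathway promoters was STC2 for SLC2A1 (distance 1.04), SLC2A1 for VEGFA (1.39), LDHA for EPAS1 (1.66), EGLN1 for CCND1 (1.86) and TGFA for NDRG1 (2.09). It was SLC2A1 for HIF1A (3.31), CCND1 for EGLN3 (3.77) and EGLN3 for CA9 (5.43).

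AA was tested against control over both lines with edgeR's quasi-likelihood test on all 29925 windows that had enough tags, with the HpaII signal taken relative to MspI of the same DNA. None of the 8 promoters passed at an adjusted p under 0.05, where 0.404% of all windows did. An unadjusted p under 0.05 was found for 3589 of the 29925 windows and for 1 of the 8. That was NDRG1, at 2.14 ± 0.98 (log2 fold change with SE) and an adjusted p of 0.372 by edgeR. DESeq2 called none of the 8 (smallest adjusted p = 0.276). The log2 fold change was 1.17 ± 0.64 for CCND1, 1.08 ± 0.74 for EPAS1, 0.34 ± 0.69 for VEGFA and -0.23 ± 0.63 for SLC2A1 (SE). The median over the 8 was 1.13, or 0.96 with CA9 put at its bound, against 1.27 over all windows tested and 0.94 over those with at least 10 reference CCGG sites. A missed threshold does not show that a promoter was the same with and without AA, since the fit has 3 residual degrees of freedom. On simulated data for this comparison over 29925 windows it recovered 3% of 8-fold changes and 70% of 64-fold changes. The changed windows were drawn from those with more HpaII tags than the median window, so recovery in sparser windows was not tested.

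Fitted by line, AA against control in 769 called none of the 8 promoters, where 1.85% of all windows were called. CCND1 had the smallest p, at 2.11 ± 0.67 (log2 fold change with SE) and an adjusted p of 0.106 by edgeR. Both AA samples were higher than the control. CCND1 was the 1 promoter with an unadjusted p under 0.05, which 4546 of the 29925 windows had. DESeq2 called CCND1 at a log2 fold change of 2.05 (adjusted p = 0.00182), but it called 3392 of the 29925 windows. So did edgeR on HpaII alone (1.77, adjusted p = 0.0362), which called 1590 of the 29925. Over the 14 alternatives for CCND1 the adjusted p ran from 0.00182 to 0.651. NDRG1 had 1.01 ± 0.99, SLC2A1 -0.75 ± 0.70, EGLN3 3.61 ± 2.65 and HIF1A -1.68 ± 2.15 (SE). The median over the 8 of the plain log2 ratio of the AA mean to the control, with 0 tags at 3, was 0.37, against 0.31 over the tested windows with a value and 0.23 over those of them with at least 10 reference sites. Each line has 1 control, so AA cannot be told apart from a property of that control library.

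In 786 none of the 8 promoters was called either, where 0.124% of all windows were. An unadjusted p under 0.05 was found for 2870 of the 29925 windows and for 2 of the 8. NDRG1 stood at 3.91 ± 1.31 (log2 fold change with SE) and an adjusted p of 0.282 by edgeR, and EPAS1 at 2.62 ± 0.92 and 0.317. In each, both AA samples were higher than the control. DESeq2 called none and gave no adjusted p for 3 of the 8. VEGFA had 0.68 ± 0.81, SLC2A1 0.33 ± 0.74 and CCND1 0.18 ± 0.69 (SE). The median over the 8 of the plain log2 ratio, with 3 controls put at 3 tags, was 0.20, against -0.62 over the tested windows with a value, where 15126 of 29016 had a control at 0, and -0.34 over those with at least 10 reference sites. Fitted values without that bound had a median of 3.27 over the 8, 3.37 over all windows and 1.87 over those with at least 10 reference sites, which all 8 promoters have. The control of 786 held 5 HpaII tags for EPAS1 and 2 for NDRG1, and the part of that depth in these values was not tested.

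**Figure D4:**
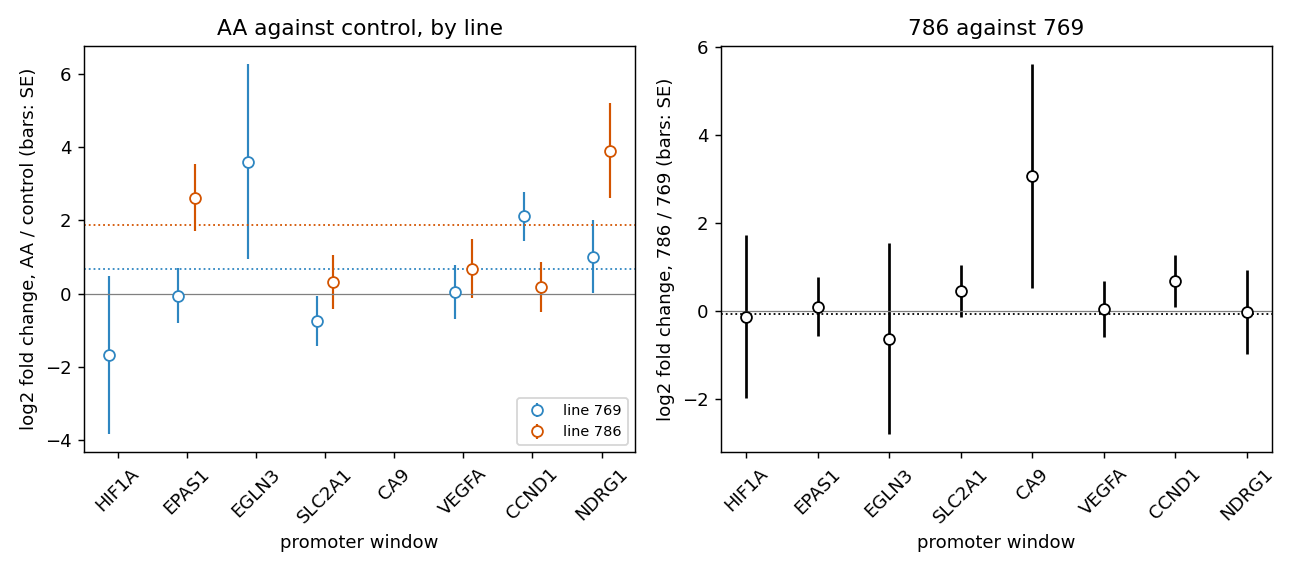
Log2 fold change of HpaII relative to MspI with its SE for AA against control in each line (left) and for 786 against 769 (right), with the median of windows with 10 or more reference CCGG sites as dotted lines. Open symbols did not pass in edgeR's test, all symbols are open, and promoters whose control had 0 HpaII tags (CA9 in both lines, HIF1A and EGLN3 in 786) are left out on the left.

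The AA effect was also compared between the lines. None of the 8 promoters passed, where 0.174% of all windows did. EPAS1 was the 1 with an unadjusted p under 0.05, which 3253 of the 29925 windows had. Its AA effect was larger in 786 by a log2 difference of 2.68 ± 1.19 (SE, edgeR adjusted p = 0.400). The CCND1 difference was -1.93 ± 0.96 (SE, edgeR adjusted p = 0.475), larger in 769. DESeq2 called none (smallest adjusted p = 0.0647). The contrasts of the lines share no sample, and each rests on its own single control.

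Between the lines, 786 against 769, none of the 8 passed, where 2.37% of all windows were called. None of the 8 had an unadjusted p under 0.05, which 4629 of the 29925 windows had. DESeq2 called none (smallest adjusted p = 0.100). Log2 differences were 0.67 ± 0.59 for CCND1, 0.45 ± 0.59 for SLC2A1, 0.10 ± 0.68 for EPAS1, 0.04 ± 0.63 for VEGFA and -0.03 ± 0.96 for NDRG1 (SE). HIF1A and EGLN3 had -0.13 ± 1.85 and -0.64 ± 2.17, and CA9 3.07 ± 2.54, with 3 of its 6 values at 0 tags. Single samples moved these values. CCND1 was 0.049 without the 769 control and 0.14 without the 786 control. SLC2A1 was 0.11 without 769 AA 2 and 0.21 without 786 AA 2, and 0.80 and 0.90 without the 769 and the 786 control. Without either control the comparison rests on the AA samples alone, so the values without a control are not separate checks. The median over the 8 was 0.07, over all windows 0.19 and over those with at least 10 reference sites -0.07. MspI tags alone, which are cut in either state, also differed in none of the 8 by edgeR, where 0.0969% of all windows were called. An unadjusted p under 0.05 was found for 2893 of the 29925 windows and for 0 of the 8. The MspI log2 differences of the 8 ran from -0.89 for HIF1A to 0.48 for EGLN3.

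Other genes of the pathway were listed for comparison, and 13 of 35 could be placed in hg19 from the spacing of their CCGG. These were EGLN1 and EGLN2 among the regulators, PDK1, LDHA, ENO1, HK2 and PFKFB3 in glycolysis, STC2 and TGFA among secreted factors, ANKRD37, MXI1 and KDM3A among further targets and LOX of the matrix. ANKRD37 did not reach the minimum of tags, and of the other 12 none rose and none fell by edgeR for AA over both lines, AA in either line, the difference of the lines or 786 against 769. The counts at an unadjusted p under 0.05 were 3, 3 in 769, 5 in 786, 3 and 1 in the same order. Of all 29925 windows 3589, 4546, 2870, 3253 and 4629 had such a p by edgeR. DESeq2 called 1 for AA over both lines and in 769 (EGLN2, higher with AA), none in 786, 2 for the difference (EGLN1 and PFKFB3) and 1 between the lines (STC2). Of all 29925 windows DESeq2 called 853, 3392, 83, 1044 and 3762 in that order. The median log2 fold change of the 12 for AA over both lines was 0.39.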

How the data were processed

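HELP-tagging was read in 12 libraries of 6 DNA samples, with 3785890 to 12442031 tags per MspI library and 189704 to 11054037 per HpaII library. The deposited files give, per the file headers, the expected count of tags at each CCGG site, left, right and summed, and the authors applied no normalization that the files show. The build is hg19 per the submitters' processing notes, and the aligner was not given in the sources used here. Groups came from the sample titles.

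Expected counts were summed per window and rounded. Windows were the 8 promoters, the placed pathway promoters and tiles of 4001 bp on chromosomes 1 to 22 and X, tested where every MspI library had 10 tags or more and the HpaII libraries 10 or more together, which left 29925 of 279484. edgeR 4.0.16 (R 4.3.3) fitted terms for DNA sample, enzyme, enzyme by line and enzyme by AA, or AA within line, with TMM factors within each enzyme and Benjamini-Hochberg adjustment, and a window passed at an adjusted p under 0.05. Residual degrees of freedom were 3, and 2 in the fit by line, where a lone control is given the spread of the other samples. Ratios use library totals, exact 95% counting intervals and a floor of 3 tags per library. Python 3.11.15, numpy 2.4.6, pandas 2.3.3, scipy 1.17.1 and matplotlib 3.10.9 were used.

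The fit was tested on simulated data over 29925 windows, all at the common dispersion of these libraries (0.425). Of these, 100 windows were changed 8-fold and 100 changed 64-fold, drawn from those with more HpaII tags than the median window. For AA over both lines 1 of 74 calls was false. For 786 against 769 it recovered 6% and 70%, with 1 of 77 calls false. At a dispersion of 0.05 it recovered 100% in both. The simulation settings were revised once after a first run.

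All 8 promoters are named. Sites are named where they had the most MspI tags among those with at least 10 in every MspI library, or the most HpaII tags of the promoter, and others are said to be picked after their values were seen. Pathway promoters were placed by matching the spacing of at least 4 CCGG in the RefSeq sequence to listed sites. That at least 4 listed sites must match was set after a first placement, without use of HpaII values. As a check, EPAS1 and EGLN3 were placed 7 and 2 bp from the given starts. The members and lists were chosen with earlier results of these data known. Alternatives were library totals, TMM over all 12 libraries, DESeq2 1.42.0, other filters on low counts, thinning to the smallest library, HpaII alone, sites within 1000 bp, a replicate block, no line or AA term, other ratio denominators and site sets, and leaving out each DNA sample.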

Additional observations from a re-analysis of the deposited data

Results flagged for a closer look

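For 3 promoters both AA samples moved one way from the control in 769 and the other way in 786 by the plain ratio. The fitted log2 fold changes, with TMM factors, had the same sign in both lines for VEGFA (0.04 in 769, 0.68 in 786) and CCND1 (2.11 in 769, 0.18 in 786). For EPAS1 they were -0.05 in 769 and 2.62 in 786. The VEGFA effect of AA was larger in 786 than in 769 by a log2 difference of 0.65 ± 1.09 (SE, edgeR adjusted p = 1). Its ratio went from 2.76 to 2.59 and 2.43 in 769 and from 2.54 to 3.61 and 2.86 in 786, all within the counting interval of 1.33 to 4.42 of the 786 control. For EPAS1, the HIF-2 alpha subunit, the difference was 2.68 ± 1.19 (SE, edgeR adjusted p = 0.400). In 769 its AA 1 ratio of 1.65 lay within the control's counting interval of 1.48 to 1.91, and AA 2 at 1.25 lay below it. For CCND1, which encodes cyclin D1, the difference was -1.93 ± 0.96 (SE, edgeR adjusted p = 0.475), with the 769 control as the low sample. Its 786 AA ratios of 2.61 and 2.86 lay within the control's counting interval of 2.10 to 4.34. The test of the difference itself passed for none of the 3. The 786 control HpaII library held 13 tags for VEGFA, 5 for EPAS1 and 34 for CCND1, and the part of its depth in these differences was not tested.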

How the results depend on the processing

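Of 594 values of the 8 promoters under other settings, 534 kept their direction and their side of the threshold, 2 became called (CCND1 for AA in 769 with DESeq2 and with HpaII alone) and 58 reversed, none of them called. The reversed values are log2 fold changes. For AA over both lines SLC2A1 was 0.0042 with at least 10 HpaII tags in every HpaII library. For AA in 769 VEGFA was -0.14 with library totals, -0.083 without a filter, -0.47 with thinned libraries, -0.077 with HpaII alone, -0.55 within 1000 bp and -0.018 with DESeq2. EPAS1 was 0.36 thinned, 0.095 with HpaII alone and 0.092 within 1000 bp. For AA in 786 SLC2A1 was -0.017 with library totals and -0.22 with HpaII alone. CCND1 was -0.17 with library totals, -0.13 thinned, -0.57 with HpaII alone, -0.059 within 1000 bp and -0.078 with DESeq2. For the difference of the lines CA9 was -3.52 with DESeq2, and EGLN3 was -2.10 thinned and -0.63 with DESeq2. For 786 against 769 VEGFA was -0.15 without a filter and -0.56 with HpaII alone, SLC2A1 -0.13 with HpaII alone, and EPAS1 -0.14 without a filter, -0.14 with HpaII alone and -0.38 within 1000 bp. HIF1A was 0.021 with library totals, NDRG1 0.13 with library totals, 0.037 with TMM over all libraries, 0.13 without an AA term and 0.13 with DESeq2, and EGLN3 0.31 without an AA term.
Leaving out 1 DNA sample at a time, values ranged as follows. For AA over both lines SLC2A1 ran from -0.53 to 0.037 and HIF1A from -0.22 to 2.22. For AA in 769 VEGFA ran from -0.084 to 0.063, EPAS1 from -0.23 to 0.12 and HIF1A from -4.00 to 0.58, for AA in 786 SLC2A1 from -0.062 to 0.69, and for the difference CA9 from -0.49 to 6.78. For 786 against 769 VEGFA ran from -0.18 to 0.34, EPAS1 from -0.51 to 0.96, HIF1A from -1.83 to 1.77, NDRG1 from -0.75 to 0.84 and EGLN3 from -2.26 to 0.90. For MspI EPAS1 ran from -0.49 to 0.17, HIF1A from -1.25 to 0.19 and CCND1 from -0.41 to 0.077. The number of windows called ran from 0 to 91 for AA over both lines, 23 to 243 in 786, 10 to 296 for the difference, 29 to 576 between lines and 6 to 21 for MspI.

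The number of windows called over the genome moved far more than the promoters, from 121 for AA over both lines, 554 in 769, 37 in 786, 52 for their difference, 709 between lines and 29 for MspI. With library totals AA over both lines gave 61 and MspI 17. TMM over all 12 libraries gave 61, 304, 17 and 13 for the 4 AA tests in that order, no filter 70, 338, 309 and 212, and 312 between lines. At least 10 HpaII tags in every library gave 0 over both lines, 60 in 769, 21 for the difference and 9 between lines. Thinning gave 51, 9, 149 and 80, and 189 between lines, HpaII alone 36, 1590, 249 and 863, and DESeq2 853, 3392, 83 and 1044, and 3762 between lines. Sites within 1000 bp gave 24 in 786 and 29 for the difference. Over both lines no cell line term gave 0, and between lines no AA term gave 422. The cause was not tested. Where edgeR called 0 windows over both lines, 283 (10 HpaII tags in every library), 2676 (no cell line term) and 4213 (without 769 AA 2) had an unadjusted p under 0.05.

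With the AA number as a replicate block, windows called were 63 over both lines, 210 in 786 and 283 for the difference. The block changed no call of a promoter and reversed HIF1A between lines, to 0.16. The labels share only a number, and over 3413 windows the deviations of same-numbered AA samples had r = 0.0263, so the block stays an alternative.

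The median promoter ratio over the 8 promoters and 6 DNA samples was 2.41, and 1.16 over sites with an MspI tag in every MspI library, a smaller set of sites. AA over both lines has no value without a control. Depth limits the comparison with AA in 786 most, where the control had 79 HpaII tags over the 8 promoters.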
